A study of Homo sapiens with 4 samples.

Results

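The genes of AP-1, a family of transcription factors, were compared between HCT116 cells (a human line established from a colon carcinoma) held at 1% oxygen (hypoxia) and the same cells held at 21% oxygen (normoxia). The members were FOS, FOSB, FOSL1, FOSL2, JUN, JUNB, JUND and ATF3, and every probe set that the platform annotation lists for exactly 1 of these symbols was taken, which gave 20 of the 54675 probe sets on the array and 8 of 19775 genes. Both groups had been without serum for 24 h before they were placed at either oxygen level for 72 h, so serum starvation is shared by all samples. Each group held 2 arrays, which the labels of both groups name exp A and exp B. Whether a letter marks an experiment shared by the groups, and whether A and B came from separate cultures, is not stated in the labels, so the spread behind each p-value may be technical.

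AP-1 binds DNA as a dimer of proteins with a basic region and a leucine zipper. JUN proteins pair with each other or with FOS proteins, FOS proteins need a JUN partner, and ATF3 pairs with itself or with JUN proteins. Several of these genes are immediate early genes, whose short-lived transcripts appear within minutes of growth factor or stress signals and are driven by mitogen-activated protein kinases. In epithelial tumour cells with an active RAS pathway, AP-1 is known for controlling genes of proliferation, invasion and matrix turnover.

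AP-1 transcripts were higher in hypoxia across both families on the deposited scale, which is relative to the other genes of an array, and 6 of their probe sets turned negative when arrays were scaled to hybridization controls instead. By the brightest probe set of each gene, FOSL2 and FOS had the greatest log2 differences and FOSL1 the smallest. Of 20 probe sets 19 passed a filter on low signal (a mean over the 4 arrays at or above 97.4), and 17 of these were called higher, 0 lower and 2 not called with limma at a Benjamini-Hochberg adjusted p under 0.05 over all 27304 probe sets tested. The filter was passed through the hypoxia arrays alone by 1 of the 19 (FOSL2 218881_s_at, whose normoxia mean of 88.6 lay below it), which leaves 16 calls among the other 18. Among all tested probe sets 13.7% were called higher and 17.1% lower. With each gene represented by its brightest probe set on average, 7 of 8 members were called higher, against 14.5% of 12636 genes, and the exception was FOSL1. The median log2 difference, hypoxia minus normoxia, was 2.02 over the 19 probe sets and 0.05 over all tested probe sets. In all 19 both hypoxia values lay above both normoxia values, as they did in 35.4% of all tested probe sets. Log2 differences are of log2(signal + 23.7), so changes of dim probe sets are understated, and each fold is a ratio of mean signals.

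These directions are relative to the other genes, because the deposited signals have a common trimmed mean of about 500.1 on every array. The hybridization controls are meant to be added to each sample in a fixed amount, and whether they were was not examined. They were 2.73 times as high in hypoxia as in normoxia. Their geometric means were 8580 and 7071 in hypoxia A and B, against 2051 and 3961 in normoxia A and B. They also differed 1.93-fold between the normoxia arrays. Scaled to these controls, the median of all tested probe sets was -1.30, a shift of -1.35, and 100 probe sets (0.366%) were called higher and 9306 (34.1%) lower, where the deposited scale gave 3738 and 4668. Under that scaling 0 of the 19 AP-1 probe sets were called, 13 had a positive and 6 a negative log2 difference, and all 19 lay above the median of all probe sets, by a median of 1.89. The scaling applies 1 factor per array and moves all probe sets nearly alike, so this gap stays close to the 1.97 of the deposited scale. What set the control signals apart was not tested.

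**Figure D1:**
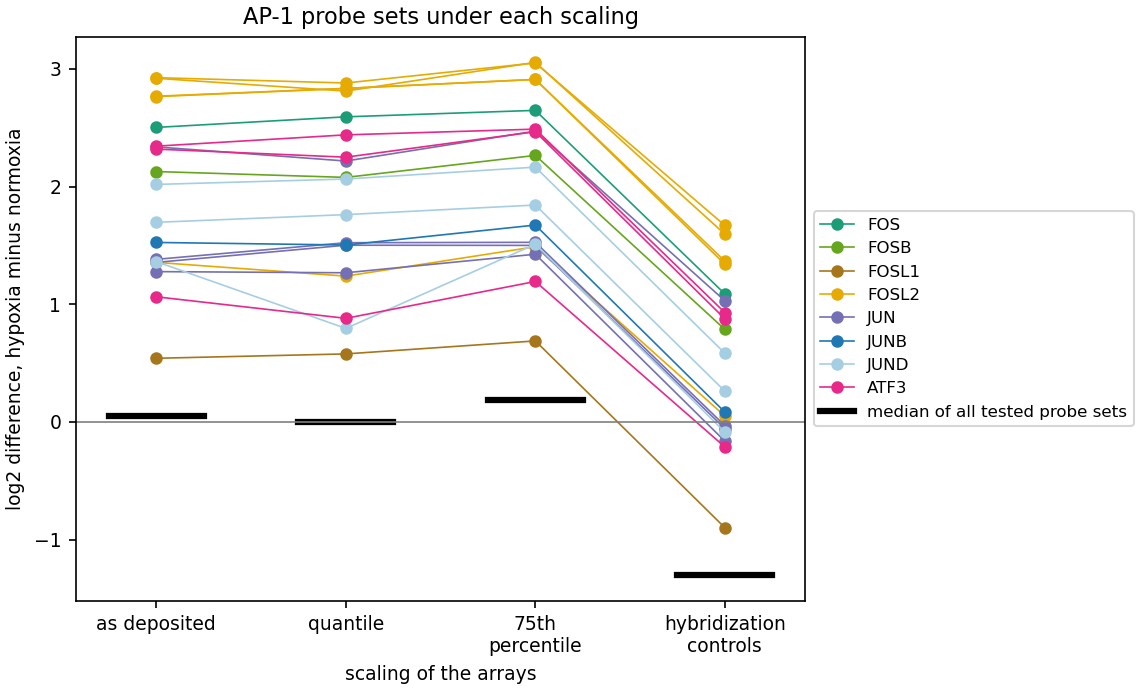
Log2 difference (hypoxia minus normoxia) of the 19 tested AP-1 probe sets on the deposited scale and after 3 other scalings of the arrays, with a line per probe set coloured by gene and a black bar for the median of all tested probe sets. All 19 are positive on the first 3 scales, and 6 of them (FOSL1, 3 of JUN, 1 of JUND and 1 of ATF3) turn negative when scaled to the hybridization controls. All lie above the median of all probe sets, which that scaling moves along with them.

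Other features of the arrays also moved with oxygen. The highest of 27 Bacillus control probe sets, taken here as a mark of background, read 305 and 226 in hypoxia A and B, against 45.7 and 121 in normoxia A and B. Whether these control sequences had been added to the samples was not examined. The ratio of the 3' to the 5' actin control probe set was 1.66 and 1.77 in hypoxia, against 1.26 and 1.28 in normoxia, while that of GAPDH was 0.912 and 0.955 in hypoxia, against 0.918 and 0.996 in normoxia. The part of these features in the AP-1 results was not tested. All 5 tested genes of a hypoxia check (NDRG1, ADM, VEGFA, EGLN3 and ANKRD37) were called higher. Of 11 markers of colon epithelium EPCAM, CDH1, KRT8, KRT18 and KRT19 exceeded every Bacillus control on all 4 arrays, whereas the 6 intestinal markers did not: KRT20, CDX2 and VIL1 exceeded them on 2 arrays each, LGALS4 on 1, and CDX1 and CDH17 on 0. CDX2 read 23.0 and 107 in hypoxia, against 210.0 and 217 in normoxia, and was not called. Of 4 leukocyte markers with a probe set 0 passed the filter, with summed signals of 171 and 419 in hypoxia, against 94.2 and 239.8 in normoxia. The 4 endothelial markers summed to 437 and 348 in hypoxia, against 105 and 292 in normoxia, and the 7 fibroblast and smooth muscle markers to 2952 and 3271 in hypoxia, against 1030.1 and 1788 in normoxia, with COL1A1 at 1752 and 2162 in hypoxia, against 545 and 595 in normoxia. EPCAM, CDH1 and KRT19 of 8 tested epithelial markers and COL1A1 of 5 tested fibroblast and smooth muscle markers were called higher, and 0 lower. Over all tested genes 14.5% were called higher and 21.7% lower. The part of these markers in the AP-1 results was not tested. Fewer expressing cells and less RNA per cell cannot be told apart in RNA from whole cultures.

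**Figure D2:**
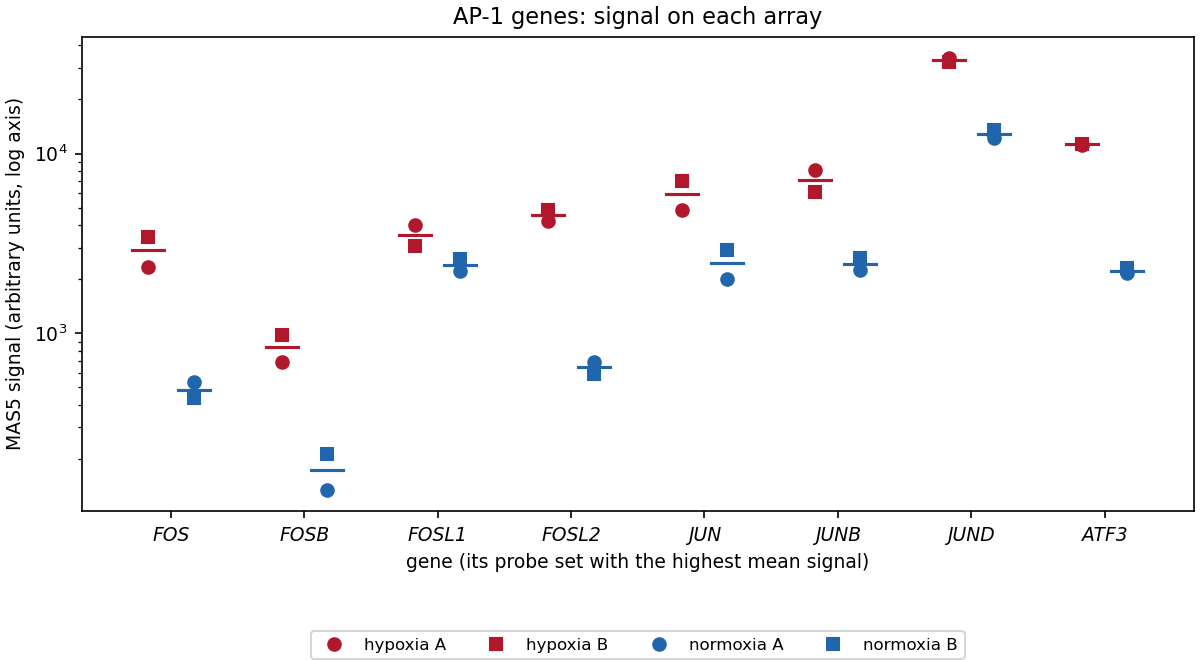
MAS5 signal (log axis) of the 8 AP-1 genes on each array, by the brightest probe set of each gene, with hypoxia in red left of normoxia in blue, circles for A, squares for B and a bar for the mean of 2 arrays. Within each gene both hypoxia points lie above both normoxia points, narrowly for FOSL1, and heights of different genes are not comparable.

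FOS, the founding member and the FOS protein of the classical FOS-JUN dimer, lies on chromosome 14 (75278828 to 75282230, GRCh38). Its only probe set read 2342 and 3457 in hypoxia A and B, against 533 and 436 in normoxia A and B. The groups lay far apart, and hypoxia B was the highest array. The mean signal was 5.98 times as high in hypoxia, with a log2 difference of 2.50 ± 0.25 SE (adjusted p = 1.86e-04). FOSB, a paralog whose truncated product is known to build up in stimulated neurons, lies on chromosome 19 (45467996 to 45475179). It read 693 and 985 in hypoxia, against 135 and 214 in normoxia, a fold of 4.80 and a log2 difference of 2.13 ± 0.36 SE (adjusted p = 0.00251). The normoxia values of FOSB were low, though above every Bacillus control on their own arrays (45.7 and 121).

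FOSL2, which encodes FRA-2, lies on chromosome 2 (28392858 to 28417317) and had 5 probe sets, all called higher. The brightest, 225262_at, read 4219.5 and 4832 in hypoxia A and B, against 695 and 597 in normoxia A and B. Signal was thus 7.01 times as high in hypoxia, and the log2 difference of 2.76 ± 0.19 SE (adjusted p = 5.41e-05) stood at percentile 99.3 of all tested probe sets. A second, 228188_at, gave 2295 and 2239 in hypoxia, against 410.1 and 237 in normoxia, with nearly the same log2 difference of 2.77 ± 0.28 SE. The probe set 218880_at read 1521 and 865 in hypoxia, against 104 and 164 in normoxia, at a log2 difference of 2.92 ± 0.38 SE. The last pair was less certain. For 218881_s_at the readings were 546 and 798 in hypoxia, against 156 and 21.6 in normoxia, where B lay under the Bacillus controls, and its log2 difference of 2.93 ± 0.64 SE ranged from 1.93 without normoxia B to 3.92 without normoxia A. For 205409_at they were 413 and 378 in hypoxia, against 105 and 184 in normoxia, with a log2 difference of 1.36 ± 0.44 SE whose call (adjusted p = 0.0450) was lost without hypoxia A (1.30, adjusted p = 0.0561), without normoxia A (1.01, adjusted p = 0.290) and without normoxia B (1.70, adjusted p = 0.0746). That call was also lost with an added value of 1 (adjusted p = 0.0508), with no filter (adjusted p = 0.0819) and without an intensity trend in the variance model (adjusted p = 0.0655), the last of which ended the call of 218881_s_at too (adjusted p = 0.0711).

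FOSL1, which encodes FRA-1, a FOS protein stabilised by ERK signalling, lies on chromosome 11 (65892049 to 65900545). It read 3982 and 3081 in hypoxia A and B, against 2209 and 2608 in normoxia A and B. The groups did not overlap, but the gap between the B arrays was small: the A arrays alone differed by 0.84 on the log2 scale and the B arrays alone by 0.24. Over all arrays it was 0.54 ± 0.20 SE (adjusted p = 0.0651), a fold of 1.47, and was not called. It was 0.36 without hypoxia A (adjusted p = 0.0951) and 0.72 without hypoxia B, where it was called (adjusted p = 0.00348). Scaled to the 75th percentile of each array it was 0.69 and also called (adjusted p = 0.0257), as it was with the filter at the 75th percentile of means (adjusted p = 0.0433), and scaled to the hybridization controls it was -0.90 (adjusted p = 0.318). Its gap to the other members was not tested.

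**Figure D3:**
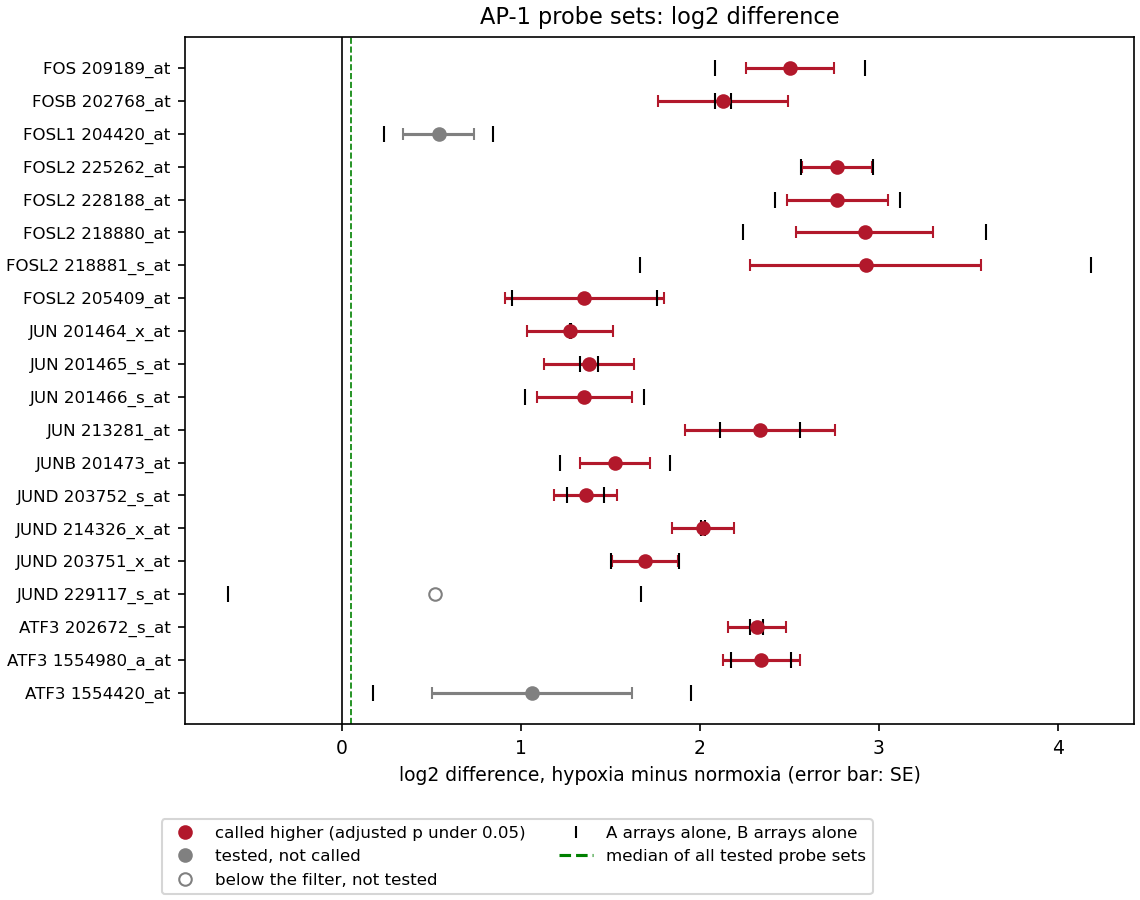
Log2 difference (hypoxia minus normoxia, horizontal axis) of all 20 AP-1 probe sets with SE as error bars and black ticks for the A arrays and the B arrays alone; red marks a call, grey none, and the open circle the probe set below the filter. After 4 of the 5 FOSL2 probe sets FOS lies furthest right, FOSL1 is the leftmost tested probe set, and the ticks lie furthest apart for FOSL2 218881_s_at.

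JUN, which encodes c-Jun, the main substrate of the JNK kinases in this family, lies on chromosome 1 (58780791 to 58784047) and had 4 probe sets, all called higher. The brightest, 201464_x_at, read 4878 and 7082 in hypoxia A and B, against 2004 and 2899 in normoxia A and B. B was the higher array in both groups, and the log2 difference was nearly the same for the A arrays alone (1.27) and the B arrays alone (1.28). The fold was 2.44 and the log2 difference over all arrays 1.28 ± 0.24 SE (adjusted p = 0.00396). The probe sets 201465_s_at and 201466_s_at had log2 differences of 1.38 ± 0.25 and 1.36 ± 0.26 SE. The dimmest, 213281_at, read 645 and 892 in hypoxia, against 89.8 and 188 in normoxia, a log2 difference of 2.34 ± 0.42 SE. That is larger than in the other JUN probe sets, and the gap was not tested. The normoxia values of 213281_at were low, though above every Bacillus control on their own arrays (45.7 and 121). The call of 201466_s_at was lost without normoxia B (1.06, adjusted p = 0.0884). Without an intensity trend in the variance model the first 3 of these probe sets were no longer called (adjusted p = 0.0768, 0.0526 and 0.0580), and scaled to the hybridization controls their log2 differences were -0.16, -0.03 and -0.06.

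JUNB, whose protein can restrain c-Jun in cell growth, lies on chromosome 19 (12791486 to 12793315). It read 8089 and 6107 in hypoxia A and B, against 2254 and 2612 in normoxia A and B. The groups lay well apart, with a fold of 2.92 and a log2 difference of 1.53 ± 0.19 SE (adjusted p = 6.07e-04), or 0.08 (adjusted p = 0.932) when scaled to the hybridization controls.

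JUND, the JUN gene best known for steady expression in resting cells, also lies on chromosome 19 (18279694 to 18281622) and had 4 probe sets. The brightest, 203752_s_at, read 33883 and 32189 in hypoxia A and B, against 12252 and 13446 in normoxia A and B. Arrays of a group differed little, and the fold was 2.57 with a log2 difference of 1.36 ± 0.18 SE (adjusted p = 6.85e-04), which was 0.79 after quantile normalization; scaling to the hybridization controls made it -0.09. The set 214326_x_at gave 5047 and 4916 in hypoxia, against 1236 and 1188 in normoxia (log2 difference 2.02 ± 0.17 SE), and 203751_x_at gave 4478 and 3868 in hypoxia, against 1194 and 1347 in normoxia (1.70 ± 0.18 SE). The last, 229117_s_at, did not pass the filter: its signals of 14.6 and 218 in hypoxia, against 35.7 and 52.3 in normoxia, lay under the highest Bacillus control on every array and the groups overlapped. The manufacturer marks with the suffix x probe sets that can cross-hybridize, which applies to 3 AP-1 probe sets, those of JUN and JUND above.

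ATF3, a stress-induced factor that can repress transcription as a homodimer, lies on chromosome 1 (212565407 to 212620777) and had 3 probe sets. The brightest, 202672_s_at, read 11214 and 11275 in hypoxia A and B, against 2172 and 2300.3 in normoxia A and B. Arrays of a group were nearly equal, and the fold was 5.03 with a log2 difference of 2.32 ± 0.16 SE (adjusted p = 5.41e-05). The set 1554980_a_at read 2866 and 2314 in hypoxia, against 484 and 493 in normoxia, a log2 difference of 2.34 ± 0.21 SE. The third, 1554420_at, read 362 and 281 in hypoxia, against 76.2 and 246 in normoxia. Its values were near the Bacillus controls, its log2 difference was 1.06 ± 0.56 SE (adjusted p = 0.178) and was not called, and it ranged from 0.35 without normoxia A to 1.78 without normoxia B. Scaled to the hybridization controls the 3 log2 differences were 0.88, 0.93 and -0.21.

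By family, all 8 tested probe sets of JUN, JUNB and JUND and 7 of 8 of the FOS family were called higher, and 2 of 3 of ATF3, against 13.7% of all tested probe sets. The median log2 difference was 2.63 in the FOS family and 1.45 in the JUN family, while they were 1.21 and 0.03 after scaling to the hybridization controls, where 4 of the 8 JUN family values and 1 of the 8 FOS family values were negative. The difference between the families was not tested. The called probe sets stood between percentile 87.8 and percentile 99.5 of all tested log2 differences. The upper end is FOSL2 218881_s_at, which passed the filter through the hypoxia arrays alone (normoxia mean 88.6). That probe set is also part of the FOS family count and median, which were not recomputed without it. Of 17 called probe sets 15 were called whichever array was left out.

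The promoters of the members are shown because the genes moved together on the deposited scale and because several AP-1 genes are known to be bound by AP-1 or related factors. RefSeq start sites (GRCh38.p14) gave 8 windows of 300 bases, from 250 before to 50 after the start, for 7 of 8 members, with a pair for ATF3; FOSL1 had none in the table used. Both strands were searched for TGACTCA, the AP-1 site, TGACATCA, its variant, TGACGTCA, the cyclic AMP response element, ACGTG, the core of the hypoxia response element, TATAAA, the TATA box letters, and the CArG box of serum response factor; none of the matches found overlapped. Upstream bases are printed 5' to 3' on the gene's strand for the 4 windows with an AP-1-like or cyclic AMP element match, with capitals marking any match. They are JUN at chr1:58784048-58784297 (minus strand), JUND at chr19:18281623-18281872 (minus strand), the upstream start of ATF3 at chr1:212565157-212565406 (plus strand) and FOSL2 at chr2:28392608-28392857 (plus strand).
JUN: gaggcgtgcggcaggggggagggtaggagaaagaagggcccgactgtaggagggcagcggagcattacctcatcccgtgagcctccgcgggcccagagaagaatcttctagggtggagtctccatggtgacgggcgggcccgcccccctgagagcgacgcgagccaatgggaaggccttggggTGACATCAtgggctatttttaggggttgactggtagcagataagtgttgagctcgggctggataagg
JUND: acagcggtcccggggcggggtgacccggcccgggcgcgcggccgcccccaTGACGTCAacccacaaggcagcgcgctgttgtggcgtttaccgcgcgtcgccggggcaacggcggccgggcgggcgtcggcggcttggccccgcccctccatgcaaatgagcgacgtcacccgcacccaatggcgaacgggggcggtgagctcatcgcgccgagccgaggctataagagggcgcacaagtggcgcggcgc
ATF3: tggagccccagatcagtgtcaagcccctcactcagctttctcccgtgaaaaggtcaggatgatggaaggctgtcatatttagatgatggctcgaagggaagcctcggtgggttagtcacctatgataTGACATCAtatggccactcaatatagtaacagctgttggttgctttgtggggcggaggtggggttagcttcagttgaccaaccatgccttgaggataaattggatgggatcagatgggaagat
FOSL2: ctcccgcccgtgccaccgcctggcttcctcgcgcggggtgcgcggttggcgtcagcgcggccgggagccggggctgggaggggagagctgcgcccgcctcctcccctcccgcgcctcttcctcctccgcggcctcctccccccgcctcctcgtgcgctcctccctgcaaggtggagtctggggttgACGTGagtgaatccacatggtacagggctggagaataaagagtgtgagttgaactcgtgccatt
The JUN window holds the variant AP-1 site at -67 to -60 from the start site, and the upstream ATF3 window holds the same letters at -123 to -116. JUND holds the cyclic AMP response element at -200 to -193. FOSL2 holds the hypoxia response element core at -64 to -60, and the AP-1 site at 5 to 11 after the start, just beyond the printed bases. Among 35116 windows of the same length 2.61% held the variant AP-1 site, 1.85% the cyclic AMP response element, 4.95% the AP-1 site and 21.4% the hypoxia response element core. The TATA box letters stood in 4 of the 8 member windows and in 11.5% of all windows. They lay at -33 to -28 in FOS, -30 to -25 in FOSB and -31 to -26 in JUNB, but at -230 to -225 in the window of the second ATF3 start. The CArG box stood in 0 of the 8 member windows and in 1.29% of all windows. Bases more than 250 before a start were not searched, so this 0 does not show that these genes lack the box. A match describes letters in a window and no binding was measured.

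Among dimer partners and relatives, a list of 16 genes that can pair with or resemble AP-1 proteins, 11 were tested, 2 were called higher and 1 lower, against 14.5% and 21.7% of all tested genes. CREB5 and BATF2 had passed the filter through their higher group alone, so that 1 call (MAFF) stands among the other 9. MAFF, a small MAF protein without a transactivation domain, read 17646 and 19079 in hypoxia A and B, against 3021 and 2931 in normoxia A and B (log2 difference 2.61 ± 0.16 SE, adjusted p = 3.54e-05), and its second probe set gave 2.74. The groups of MAFF lay far apart. CREB5, a relative of ATF2, read 309 and 208 in hypoxia, against 42.9 and 56.0 in normoxia (adjusted p = 0.0496), above the highest Bacillus control on only 1 array, hypoxia A, so no fold is given. BATF2, a BATF family protein that pairs with JUN proteins, fell to 72.2 and 28.2 in hypoxia, below the Bacillus controls, against 334 and 591 in normoxia (adjusted p = 0.00806). With each hypoxia reading set to the highest Bacillus control of its array, BATF2 was at least 1.69-fold lower in hypoxia, and the bounds of other genes below those controls were made in the same way. The median of the list was 0.37 and that of all tested genes -0.03. Without normoxia A the list median was 0.37, and without normoxia B it was 0.13. Fewer genes of the list were called each time, as were fewer of all tested probe sets.

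Of 23 kinases that feed into AP-1, 17 were tested, 6 called higher and 2 lower, against 14.5% and 21.7% of all tested genes, with a median log2 difference of 0.44 where that of all tested genes was -0.03. MAP3K5 (ASK1, a stress-activated kinase at the top of the JNK and p38 cascades) read 1275 and 2759.5 in hypoxia A and B, against 811 and 494 in normoxia A and B (log2 difference 1.53 ± 0.37 SE). RPS6KA3 (RSK2, a kinase downstream of ERK) read 4106.5 and 3391 in hypoxia, against 1516 and 1223 in normoxia (1.44 ± 0.20 SE). MAP2K4, which activates JNK, had 2326 and 2933 in hypoxia, against 1071 and 939 in normoxia (1.36 ± 0.20 SE), while its second probe set differed by 0.02. MAPK12 (p38 gamma) fell to 218 and 36.0 in hypoxia, below the Bacillus controls, against 641 and 436 in normoxia (at least 2.01-fold lower in hypoxia, adjusted p = 0.0290). Calls in this list depended on the normoxia arrays: without normoxia A 3 were higher and 0 lower, and without normoxia B 2 were higher and 1 lower.

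Of 19 factors that act on the FOS and JUN promoters or on the turnover of their products, 18 were tested, 6 called higher and 5 lower, against 14.5% and 21.7% of all tested genes, with a median log2 difference of 0.32. The 5 of 18 lower are near the share over all genes. ELK3, a ternary complex factor that works with serum response factor, read 19940 and 22113 in hypoxia A and B, against 5469 and 6115 in normoxia A and B (log2 difference 1.86 ± 0.17 SE, adjusted p = 1.46e-04). ZFP36 (tristetraprolin), which binds AU-rich transcripts and speeds their decay, read 9913 and 4553 in hypoxia, against 2303 and 2176 in normoxia (1.58 ± 0.31 SE). CREB1, which binds the cyclic AMP response element, read 2219 and 1787 in hypoxia, against 733 and 616 in normoxia (1.54 ± 0.22 SE), and its other probe sets differed by 0.50 to 2.19. DET1, part of a ubiquitin ligase that acts on c-Jun, fell to 14.8 and 47.3 in hypoxia, below the Bacillus controls, against 289 and 291 in normoxia (at least 1.10-fold lower in hypoxia, adjusted p = 0.0234). It passed the filter through normoxia alone, which leaves 4 lower calls among the other 17 tested genes. With normoxia A left out the list median was 0.26, and with normoxia B left out it was 0.36. Calls were fewer each time, here and over all tested probe sets.

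Of 34 genes known as AP-1 targets, 31 had a probe set and 20 were tested, of which 10 were called higher, 0 lower and 10 not called, against 14.5% and 21.7% of all tested genes called higher and lower, with a median of 0.81. The other 11 were dim, among them the interstitial collagenase MMP1 and the stromelysin MMP3, which have no call here. DUSP1, a phosphatase that switches off MAP kinases, read 12270.0 and 13925 in hypoxia A and B, against 1102 and 884 in normoxia A and B (log2 difference 3.70 ± 0.18 SE, adjusted p = 1.71e-05), with other probe sets at 2.53 and, near background, 0.06. IL11, a cytokine of the IL-6 family, read 685 and 641 in hypoxia, against 37.1 and 14.8 in normoxia, values below the Bacillus controls (at least 8.92-fold higher in hypoxia, adjusted p = 0.00108). It passed the filter through hypoxia alone, and 9 of the other 19 target genes were called higher. LAMB3, a laminin chain of the epithelial basement membrane, read 11865 and 9223 in hypoxia, against 1596 and 1425 in normoxia (2.77 ± 0.19 SE), and the chemokine CXCL8 read 1515 and 1737 in hypoxia, against 313 and 264 in normoxia (2.40 ± 0.25 SE). The cyclin CCND1, also on the list, had 5977 and 2813 in hypoxia A and B, against 5984 and 5833 in normoxia A and B, and was not called. Scaled to the hybridization controls the medians of the 4 lists were -1.04 for dimer partners, -0.97 for kinases, -1.11 for promoter and turnover factors and -0.62 for target genes, where that of all probe sets was -1.30.

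**Figure D4:**
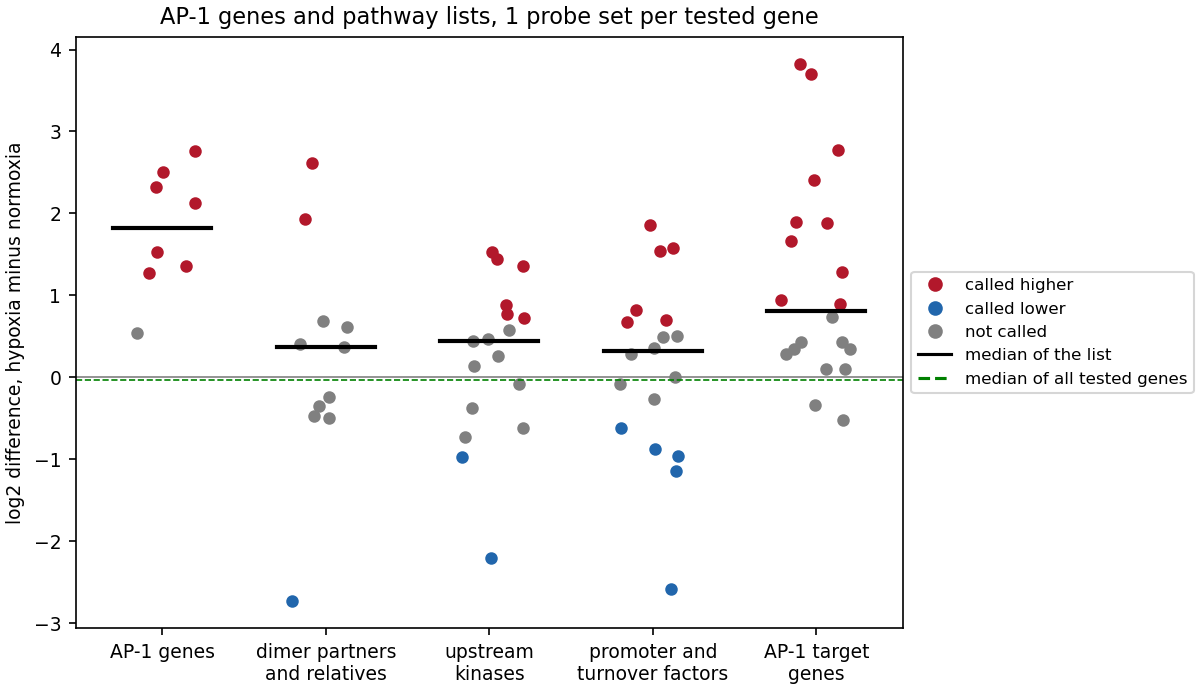
Log2 difference (hypoxia minus normoxia, vertical axis) of each tested gene of the AP-1 family and of 4 pathway lists, 1 probe set per gene, on the deposited scale; red marks genes called higher, blue lower, grey not called, black bars list medians and the dashed line the median of all tested genes. AP-1 genes have the highest median (1.83) and the dimer partner, kinase, and promoter and turnover lists hold calls in both directions, and scaled to the hybridization controls the medians of the 4 lists are negative.

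The member probe set with the greatest log2 difference was FOSL2 218881_s_at, by a narrow margin over FOSL2 218880_at (2.93 and 2.92). It was not the greatest with an added value of 100, scaled to the 75th percentile, without hypoxia B or without normoxia B (2.11, 3.05, 2.66 and 1.93, where the greatest was 2.63, 3.06, 3.32 and 3.20, all of FOSL2). The 3 genes closest to the pattern of 218881_s_at over the 4 arrays were DAPK1, USP2 and TMEM59L, at root mean square distances of 0.13, 0.22 and 0.26 on the log2 scale. DAPK1, a death-associated kinase, read 529.6 and 655 in hypoxia A and B, against 166 and 16.8 in normoxia A and B. All 3 share with that probe set a normoxia B value under the highest Bacillus control of that array (121), so the likeness rests partly on dim readings. That probe set and all 3 genes also passed the filter through the hypoxia arrays alone, with normoxia means below 97.4. No conclusion is drawn from the likeness.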

How the data were processed

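Total RNA (6 µg per sample) was labelled with biotin and hybridised to 4 arrays, per the labels' protocols. The authors deposited linear-scale intensities, 1 for each probe set. The submitters' processing notes name MAS5, with its version not given in the sources used here. Detection calls were not used here. The platform annotation named 1 gene for 41091 of 54675 probe sets, several for 1801 and none for 11721, beside 62 controls. Signals were taken as log2(signal + 23.7), the added value being the 25th percentile of all values. Probe sets with a mean at or above 97.4, the median of all means, were tested with limma 3.58.1 in R 4.3.3 (intensity trend, two-sided, Benjamini-Hochberg adjustment), with no block. The fit was tested on simulated data. An exact permutation test of 2 against 2 arrays cannot pass a threshold of 0.05, so none was run. The number of arrays limits the precision.

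All probe sets of the members are named. Of each list up to 4 called genes with the largest change are named; MMP1, MMP3 and CCND1 were added after their values were seen. Members and lists were chosen with earlier results of these data known. Genes without a probe set listed for them alone were not analysed here. Alternatives covered the added value, scaling, filter, features, variance model, a replicate block and leaving out each array. Figures were drawn with matplotlib 3.10.9.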

Additional observations from a re-analysis of the deposited data

How the results depend on the processing

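Of the 19 tested AP-1 probe sets, all kept a positive log2 difference under every alternative except scaling to the hybridization controls, where 6 turned negative: FOSL1 (-0.90), JUN 201464_x_at (-0.16), 201465_s_at (-0.031) and 201466_s_at (-0.057), JUND 203752_s_at (-0.087) and ATF3 1554420_at (-0.21). There the number of AP-1 probe sets and of AP-1 genes called higher was 0 each. Dimer partners had 0 higher and 4 lower, kinases 0 and 5, promoter and turnover factors 0 and 5 and target genes 2 and 3. All probe sets had 100 higher and 9306 lower, and the list medians were -1.04, -0.97, -1.11 and -0.62. With 1 probe set per gene in the fit, which holds only 8 AP-1 probe sets, 7 were called higher, and 1927 and 2876 of all. With no intensity trend 12 AP-1 probe sets and 6 AP-1 genes were called, and 1704 higher and 2120 lower of all, with kinases at 2 and 0 and promoter and turnover factors at 2 and 1. Dimer partners had 1 higher with an added value of 1, no filter, quantile normalization or the filter at the 75th percentile (0 lower with the last). Kinases had 1 lower with that filter and with quantile normalization and 0 when probe sets of a gene were averaged; promoter and turnover factors had 2 lower with that averaging and 3 with no filter or quantile normalization. Target genes had 1 lower with quantile normalization. With the replicate block 18 AP-1 probe sets, all 8 AP-1 genes (FOSL1 at adjusted p = 0.0245) and 4446 higher and 5669 lower of all were called, and 1 target gene was lower; deviations of A and B from the group means correlated at 0.06, and the labels do not say that a letter pairs the arrays. Leaving out each array gave 15 to 18 AP-1 probe sets and 7 to 8 AP-1 genes higher, and 2267 to 5000 higher and 2043 to 6785 lower of all; higher and lower calls ranged from 1 to 5 and 0 to 4 for dimer partners, 2 to 8 and 0 to 3 for kinases, 3 to 7 and 1 to 5 for promoter and turnover factors, and 9 to 11 and 0 to 1 for target genes. Over all probe sets, calls were fewer without a normoxia array, and the cause was not tested. Signal near the Bacillus controls limits FOSB, JUN 213281_at and the dim FOSL2 and ATF3 probe sets.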

Other observations

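FOSL2-AS1, the antisense gene named after FOSL2, had 1 probe set, which did not pass the filter: it read 13.8 and 8.72 in hypoxia A and B, against 16.9 and 112 in normoxia A and B, under the highest Bacillus control on every array. It was looked at after the values of FOSL2 were seen and was not tested.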
